A study of Homo sapiens with 6 samples.

Results

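The genes described here write, erase or read chemical marks on histones and DNA, or move nucleosomes. They were chosen by name: every protein-coding gene whose symbol is KDM, KMT, KAT, SETD, HDAC, SIRT, CBX, CHD, PRMT or DNMT followed by a number, or starts with SMARC, SUV39 or EHMT, and EZH1, EZH2, EED, SUZ12, UHRF1 and PHF8. Of 117 such genes in RefSeq, 94 were measured, among 14884 genes tested in all. The other 23 were not analysed here. They include EED, KMT2A, CBX8, KAT6A and all 13 genes whose symbol starts with SMARC, so the SWI/SNF and ISWI motors are not described. RNA from the osteosarcoma line U-2 OS was read on 6 arrays that cover whole transcripts. A retrovirus had brought into the cells wt-progerin (3 arrays) or S22A-progerin (3 arrays), and RNA was taken 4 days later. Both groups were selected with puromycin at 5 µg/ml. Progerin is the truncated, permanently farnesylated lamin A of Hutchinson-Gilford progeria, and in S22A-progerin serine 22, a phosphorylation site used in disassembling the lamina for cell division, is replaced by alanine. Every cell culture carried a progerin, so no array shows the line without it. The labels describe the 3 replicates of a condition as independent.

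Condensed chromatin lies along the inner face of the nuclear envelope, where it is held by lamins, by lamin-binding membrane proteins and by the HP1 proteins that read methylated histone H3. Enzymes that add methyl groups to histone H3 and to DNA keep such regions silent, and demethylases, acetyltransferases and remodellers reopen them. After each round of DNA replication the marks must be copied onto new nucleosomes and new DNA strands, and many of the enzymes that do this are made at higher levels in dividing cells. Loss of repressive chromatin marks has been described in cells from patients with progeria.

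Values are log2 signals with n = 3 arrays per group, and a difference is the S22A-progerin mean less the wt-progerin mean. A gene passed when limma's p, adjusted by Benjamini-Hochberg over all 14884 genes, was under 0.05. Arrays correlated at 0.994 to 0.997 within a group and 0.983 to 0.985 between the groups, across genes, which are not independent replicates. LMNA, which encodes lamin A and progerin, had means of 8.14 and 8.29 and did not pass (limma adjusted p = 0.0796). LMNA was still higher on every S22A-progerin array (8.31, 8.26 and 8.29 against 8.17, 8.15 and 8.10), by 0.15 in the mean. Equal LMNA RNA in the groups was therefore not shown. Of 8 mesenchymal and osteosarcoma markers 4 were measured: VIM (means 10.89 and 10.83), FN1 (12.50 and 12.07, lower), RUNX2 (8.77 and 8.03, lower) and SPP1 (7.18 and 8.36, higher). The 2 of 5 leukocyte and 2 of 3 endothelial markers measured were dim, at 5.23 to 6.88 in group means, and did not pass. Of 5 epithelial markers 4 were measured, and KRT18 passed as higher (11.42 and 11.94). EPCAM (7.15 and 6.87), KRT8 (7.57 and 7.62) and KRT19 (6.36 and 6.30) did not pass, with EPCAM lower on every S22A-progerin array.

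Of the 94 genes, 30 were lower in S22A-progerin (31.9%) and 9 were higher (9.57%). Over all genes tested, 14.6% were lower and 10.8% higher. In either direction 39 members passed (41.5%), against 25.4% of all genes and 28.5% of the 11916 protein-coding ones, of which 16.8% were lower and 11.8% higher. The genes of DNA methylation, Polycomb repressive complex 2 and HP1 held several of the largest falls, beside HDAC6 (1.51-fold) and CHD5 (1.45-fold) of other classes. EZH2 fell most, 1.77-fold, followed by DNMT3B (1.57-fold). HDAC9 rose most, 1.96-fold, followed by the histone demethylases KDM7A (1.69-fold) and KDM6A (1.37-fold). All differences were under 2-fold: of the genes that passed, 3 fell and 2 rose by at least 1.5-fold. The median difference over the 94 genes was -0.12, against -0.00367 over all genes. Because each array reads RNA of a whole culture, fewer cells with a transcript and less transcript per cell cannot be told apart.

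These genes were also brighter than most, and bright genes fell more often. In the highest tertile of genes by level, 25.6% were lower and 14.2% higher, and of the 63 members there 24 were lower (38.1%) and 8 higher (12.7%). In the middle tertile 14.8% of all genes and 6 of 25 members were lower. None of the 6 members in the lowest tertile passed. Proliferation markers moved with the falls. All 20 measured were lower (median -0.47), their mean level was 10.74, 10.74 and 10.77 on the wt-progerin arrays and 10.29, 10.29 and 10.19 on the S22A-progerin arrays, and none was dim, with gene means of 8.68 or more. Their part in the falls of the chromatin genes was not tested.

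The arrays of one group lay wholly to one side of the other's in 44 members that were lower and 12 that were higher in S22A-progerin, 56 of 94 (59.6%). Over all genes 42.1% did not overlap, 23.6% lower and 18.5% higher. The count of members that were lower changed with 1 array left out, in fits that have fewer arrays and in which fewer genes of all passed. It was 18 without wt-progerin replicate 3 and 19 without wt-progerin replicate 1, where 10.2% and 10.6% of all genes were lower. Of the 39 members that passed, 24 passed in every fit with 1 array left out.

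**Figure D1:**
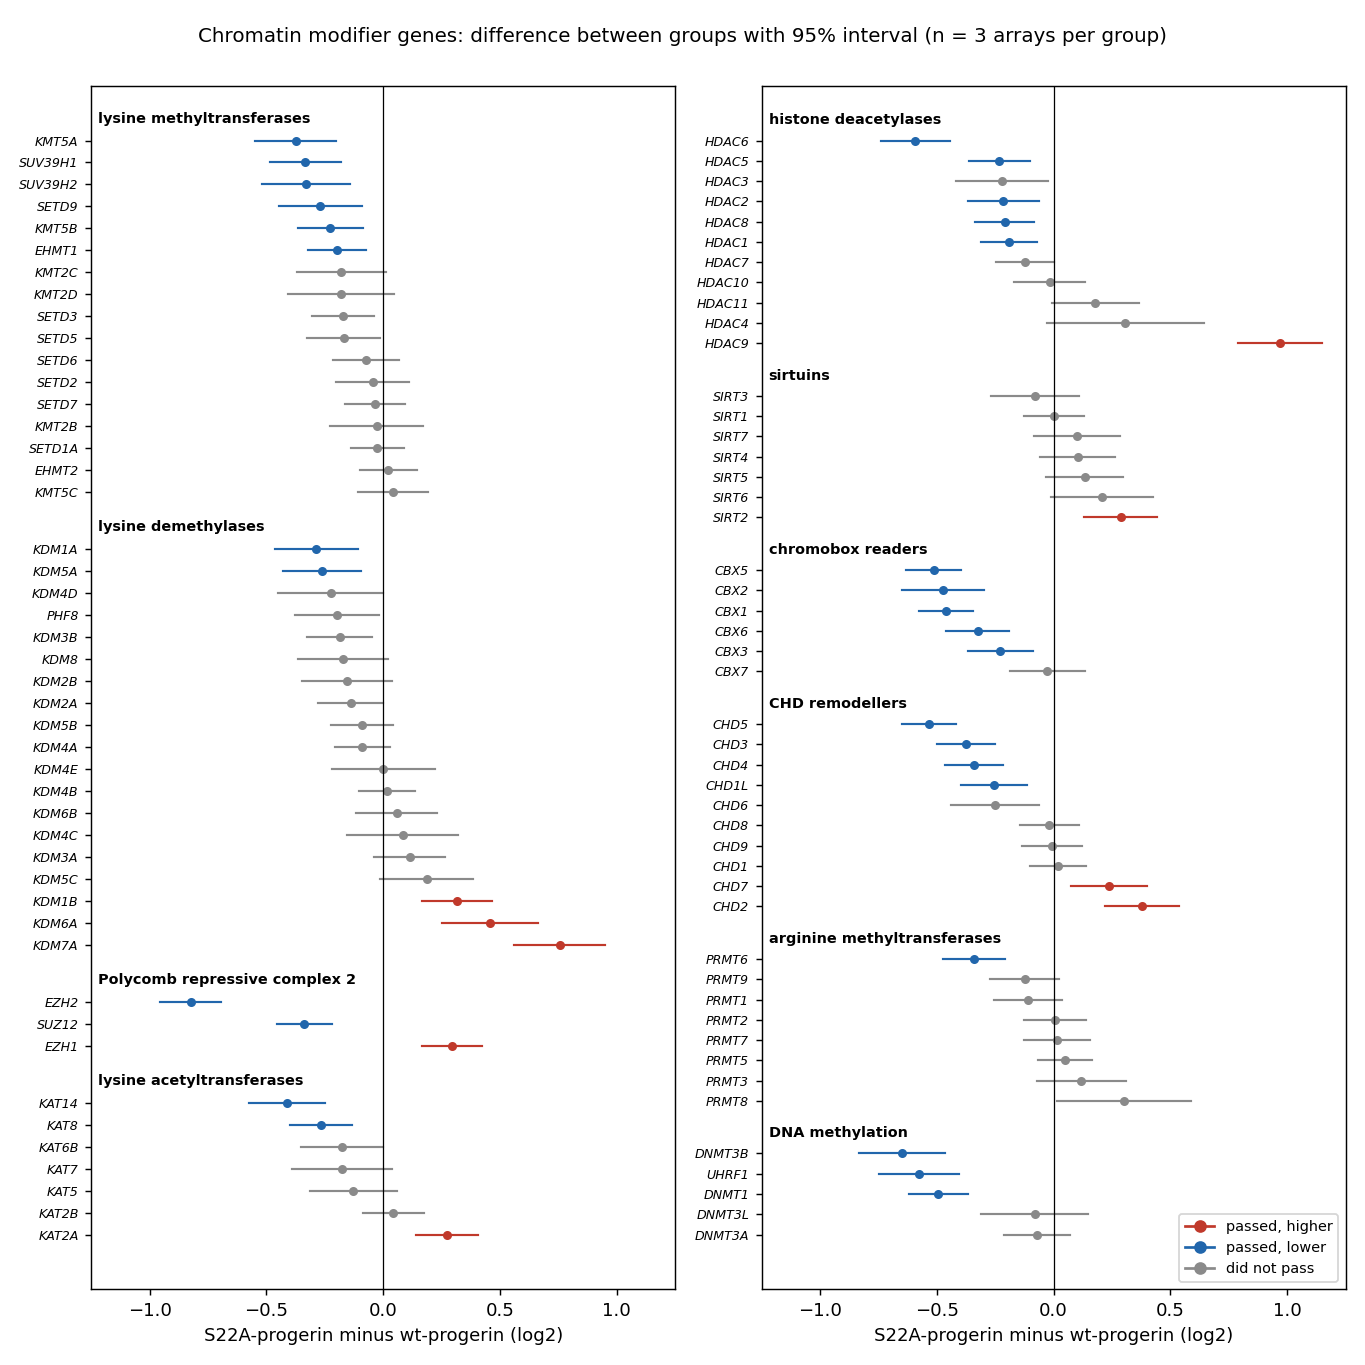
Difference between S22A-progerin and wt-progerin on the log2 scale for the measured genes of each class except KDM5D, with its 95% interval (limma, n = 3 arrays per group). Red and blue mark genes that passed at an adjusted p under 0.05, and EZH2, DNMT3B, HDAC6 and UHRF1 lie farthest left while HDAC9 and KDM7A lie farthest right.

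**Figure D2:**
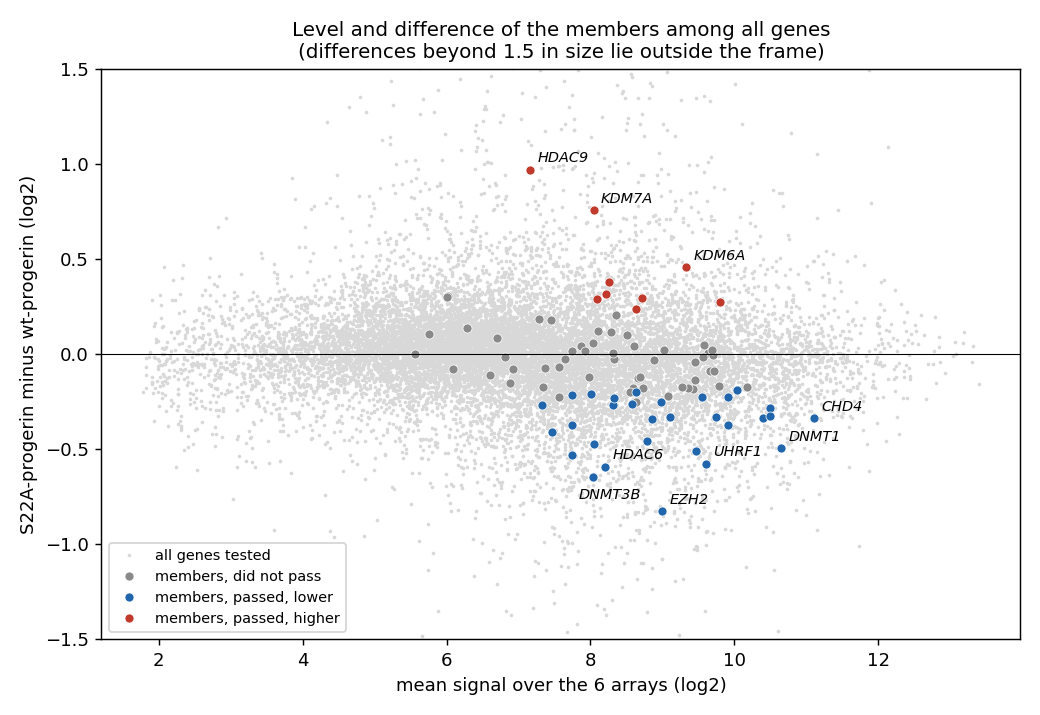
Mean signal over the 6 arrays (x axis, log2) against the difference between the groups (y axis, log2), for all 14884 genes tested in grey and the members in colour. Most members lie right of the middle of the range of levels, and the blue points of the 30 lower members outnumber the red points of the 9 higher ones.

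The start regions of these genes were searched for letters that E2F factors bind, because E2F drives many genes of S phase. The promoter table of RefSeq (GRCh38.p14) matched 85 of the 94 genes by symbol, and its first listed start was used. In the 250 bases before the start, TTGGCGC or its other form TTCGCGC, on either strand, was found in 3 of the 85 (3.53%), against 4.37% of all 27305 genes of the table and 6.08% of the 9707 protein-coding genes tested here. In these bases the shares of lower members (1 of 26, 3.85%) and of members that did not pass (2 of 51, 3.92%) were alike, and 0 of 8 higher members held it. With the search widened to the table's full 300 bases, a choice made after the first result was seen, it was found in 5 of 26 lower members (19.2%), 2 of 51 that did not pass (3.92%) and 0 of 8 higher ones. Of the protein-coding genes tested, 7.21% held it in that window, and of the 1682 lower ones with an entry 9.93%. The sites of the 5 lower genes are printed because they lie close to the annotated start. They begin within 3 bases of it in all but KMT5A, where the site begins 45 bases before. Those of EZH2, DNMT1, CBX3 and KDM1A lie across or just after the start, so only the widened search could find them. The sites in SETD6 and PRMT3, which did not pass, begin 210, 243 and 78 bases before the start. Capitals mark the match, with up to 10 bases on each side, in the direction of transcription:

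EZH2: gctgccgcgtTTGGCGCtcggtccggt
DNMT1: atcggtttccGCGCGAAaagccggggc
CBX3: gagtccggttTTGGCGCcagccgctga
KDM1A: gggagcgcgcTTGGCGCgtgcgtacgc
KMT5A: gcgggaggcgGCGCCAAtcggggcgag

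In GRCh38.p14 the sites lie at chr7:148884273-148884299 (EZH2, minus strand), chr19:10194939-10194965 (DNMT1, minus strand) and chr7:26201430-26201456 (CBX3, plus strand). Those of KDM1A and KMT5A lie at chr1:23019456-23019482 and chr12:123384077-123384103, both on the plus strand. The CHR element, TTTGAA on either strand, which is known from genes of mitosis, was in 3 of the 26 lower members over 300 bases (11.5%), near the 11.4% of the protein-coding genes tested. A match describes letters and not binding, and a missing match says only that these letters are not in the window.

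Polycomb repressive complex 2 adds methyl groups to lysine 27 of histone H3 through EZH2 or, in cells that divide little, its relative EZH1. The 3 wt-progerin arrays gave EZH2 signals of 9.38, 9.40 and 9.45, and the 3 S22A-progerin arrays 8.65, 8.57 and 8.54. Its lowest wt-progerin array lay far above its highest S22A-progerin array, and it fell by 0.82 on the log2 scale (SE 0.055, 95% interval -0.96 to -0.69, limma adjusted p = 1.10e-04). EZH1 went the other way, with 8.57, 8.56 and 8.59 in wt-progerin and 8.92, 8.80 and 8.88 in S22A-progerin, a rise of 0.29 (SE 0.055, limma adjusted p = 0.00793). SUZ12, the subunit that holds the complex together, fell by 0.34 (SE 0.050), from 10.54, 10.59 and 10.57 to 10.25, 10.25 and 10.20. So all 3 measured core genes passed, 2 lower and 1 higher, where 25.4% of all genes passed. They were bright, and in the brightest tertile of all genes 25.6% were lower and 14.2% higher. Each of the 3 kept its call in every alternative fit run. Per array, EZH1 minus EZH2 was 1.12 higher in S22A-progerin, with no overlap between the groups (exact permutation test, two-sided, p = 0.1, the smallest that 3 against 3 arrays allow, and 0.143 adjusted over the 10 pairs of related genes compared).

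The first listed EZH2 promoter, chr7:148884292-148884541 on the minus strand, held 38 CG pairs and 75.6% G and C in the 250 bases before the start. The HDAC9 promoter, of the member that rose most, chr7:18495499-18495748 on the plus strand, held 4 CG pairs and 45.2% G and C. The pair is printed to set the member that fell most beside the one that rose most, and neither held the E2F or CHR letters in these bases:

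EZH2: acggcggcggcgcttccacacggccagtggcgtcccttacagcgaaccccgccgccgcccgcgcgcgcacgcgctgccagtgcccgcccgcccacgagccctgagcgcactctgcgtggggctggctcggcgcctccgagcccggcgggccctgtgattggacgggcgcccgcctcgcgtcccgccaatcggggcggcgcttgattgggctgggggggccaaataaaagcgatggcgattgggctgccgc
HDAC9: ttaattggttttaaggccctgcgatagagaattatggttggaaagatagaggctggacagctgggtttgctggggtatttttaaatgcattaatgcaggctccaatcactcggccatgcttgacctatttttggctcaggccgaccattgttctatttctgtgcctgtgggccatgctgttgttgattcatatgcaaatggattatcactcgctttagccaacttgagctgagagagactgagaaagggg

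The array does not tell which start of a gene was used, and RefSeq lists more than 1 for both. Of the next largest changes, the promoters of DNMT3B (64.0%) and HDAC6 (64.4%), which fell, and of KDM7A (81.6%), which rose, had G and C shares between or above these.

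Cytosine methylation is copied to the new DNA strand by DNMT1, which UHRF1 brings to hemimethylated sites, and is laid down afresh by DNMT3A and DNMT3B. DNMT1 went from 10.88, 10.88 and 10.93 in wt-progerin to 10.45, 10.42 and 10.35 in S22A-progerin, so that it fell by 0.49 (SE 0.054, limma adjusted p = 7.91e-04). UHRF1 fell by 0.58 (SE 0.073), from 9.87, 9.91 and 9.90 to 9.45, 9.30 and 9.20. DNMT3B fell by 0.65 (SE 0.078), from 8.35, 8.38 and 8.36 to 7.86, 7.71 and 7.57. In all 3 genes every S22A-progerin array lay below every wt-progerin array, with S22A-progerin replicate 3 the lowest, and all 3 passed in every alternative fit. DNMT3A, the other enzyme that methylates unmodified sites, had means of 7.60 and 7.53 and did not pass (-0.07, 95% interval -0.21 to 0.07), and the groups overlapped. DNMT3L, a partner without enzyme activity, was dim at 6.13 and 6.05 (-0.08) and did not pass either. Per array, DNMT3A minus DNMT3B was 0.58 higher in S22A-progerin with no overlap (exact permutation p = 0.1, adjusted 0.143).

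**Figure D3:**
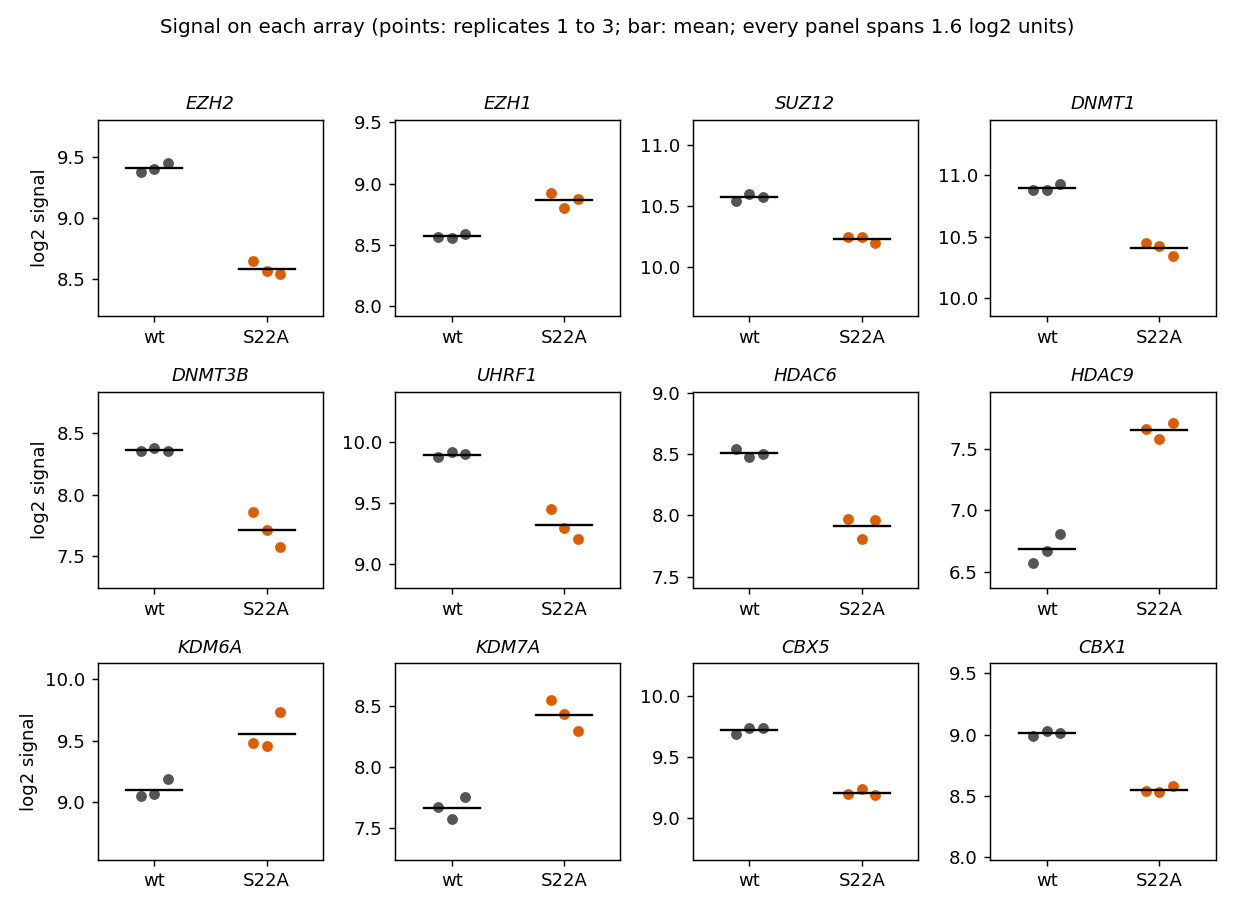
Log2 signal of 12 members on each of the 6 arrays, with 3 points per group and a bar at the mean. The 12 were picked from the members that passed, so the lack of overlap in every panel follows from that choice. Over all genes 42.1% did not overlap. EZH2 and EZH1 move in opposite directions.

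Chromobox proteins read methylated histone H3. CBX1, CBX3 and CBX5 are the HP1 proteins of heterochromatin, and CBX2, CBX6 and CBX7 belong to Polycomb repressive complex 1. Of these 6 genes 5 fell and none rose (83.3% passed, against 25.4% of all genes), with a median of -0.39. Their median level was 9.12, and in the brightest tertile of all genes 25.6% were lower and 14.2% higher. CBX5, HP1 alpha, went from 9.69, 9.74 and 9.73 in wt-progerin to 9.19, 9.23 and 9.19 in S22A-progerin, so that it fell by 0.51 (SE 0.050, limma adjusted p = 4.75e-04). CBX1, HP1 beta, fell by 0.46 (SE 0.049), from 8.99, 9.03 and 9.02 to 8.54, 8.53 and 8.58. CBX2 fell by 0.47, from 8.25, 8.42 and 8.18 to 7.82, 7.86 and 7.76. The spread within a group was small beside these differences, with the widest in CBX2 (SD 0.125 in wt-progerin). CBX6 fell by 0.32, and its dimmer second probe set by 0.44. CBX3, HP1 gamma, fell by 0.23 from a mean of 9.66, but the call ended without any 1 of 5 arrays, S22A-progerin replicate 2 being the exception (limma adjusted p = 0.0518 or more). CBX7 had means of 7.66 and 7.63 and did not pass. CBX5 fell more than CBX3 in the per-array difference by 0.28, with no overlap (exact permutation p = 0.1, adjusted 0.143).

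Lysine methyltransferases fell in 6 of 17 cases and rose in none (35.3% passed, against 25.4% of all genes), with a median of -0.17. The class was bright (median level 8.725), and in the brightest tertile of all genes 25.6% were lower and 14.2% higher. The genes that fell include both SUV39 enzymes, which trimethylate lysine 9 of histone H3. SUV39H1 went from 9.32, 9.31 and 9.18 to 9.01, 8.89 and 8.91 (-0.33, SE 0.065, limma adjusted p = 0.00918), and its dimmer second probe set fell by 0.53. SUV39H2 went from 9.96, 9.87 and 9.91 to 9.66, 9.67 and 9.42, also -0.33. SUV39H1 minus SUV39H2 changed by -0.00390 per array, and the groups overlapped (exact permutation p = 0.9). That value rests on the brighter probe set of SUV39H1: it was -0.10 with probe sets averaged, and -0.07 to 0.06 with 1 array left out. KMT5A, which places the first methyl group on lysine 20 of histone H4, fell most in the class, by 0.37 (SE 0.073), from 7.88, 7.97 and 7.95 to 7.59, 7.66 and 7.43. KMT5B, which adds further methyl groups at the same residue, fell by 0.23, while its relative KMT5C did not pass (0.04). EHMT1 fell by 0.20, and EHMT2, its partner in dimethylating lysine 9, had a difference of 0.02 and did not pass. EHMT1 minus EHMT2 was lower by 0.22 per array with no overlap, written -0.22 in that direction (exact permutation p = 0.1, adjusted 0.143). SETD9 fell by 0.27.

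The enzymes of active chromatin in this class did not pass. KMT2C (-0.18) and KMT2D (-0.18), which mark enhancers, overlapped between groups, as did KMT2B (-0.03) and SETD1A (-0.02) of the promoter mark on lysine 4, and SETD2 (-0.04), which methylates lysine 36. Without S22A-progerin replicate 3, KMT2C, KMT2D and SETD5 passed as lower (limma adjusted p = 0.0321, 0.0347 and 0.0372). Calls of the class were lost more often than those above with 1 array left out, in fits that have fewer arrays. Without wt-progerin replicate 1 or 3 there were 2 falls, and without wt-progerin replicate 2 there were 3. SUV39H2 lost its call without wt-progerin replicate 1 or 3 (adjusted p = 0.0759 and 0.0670). KMT5B (0.0597 to 0.102), EHMT1 (0.0677 to 0.113) and SETD9 (0.0534 to 0.116) each lost it, by limma's adjusted p, without any 1 of 5 arrays.

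Of 20 lysine demethylases 3 rose and 2 fell, with a median of -0.05. The share that passed, 25%, was near the 25.4% of all genes. KDM7A, which removes methyl groups from lysines 9 and 27 of histone H3, rose by 0.76 (SE 0.082, limma adjusted p = 7.67e-04), from 7.67, 7.57 and 7.75 to 8.54, 8.43 and 8.29. KDM6A, an X-linked enzyme that removes methylation from lysine 27 and so undoes the mark of EZH2, rose by 0.46 (SE 0.088), from 9.05, 9.06 and 9.19 to 9.48, 9.46 and 9.73. KDM1B, one of the flavin-dependent demethylases of lysine 4, rose by 0.32 (SE 0.063). The groups did not overlap in any of these 3, and each passed in every fit with 1 array left out. KDM6B, the inducible relative of KDM6A, had a difference of 0.06 and did not pass. KDM6A minus KDM6B was 0.40 higher per array in S22A-progerin, with no overlap (exact permutation p = 0.1, adjusted 0.143).

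KDM1A (LSD1), the other flavin-dependent demethylase, fell by 0.29 from a tight wt-progerin mean of 10.64 (SD 0.00839) to 10.44, 10.42 and 10.20. KDM5A, which acts on trimethylated lysine 4, fell by 0.26. KDM5B, its relative, did not pass (-0.09), and KDM5A minus KDM5B was lower per array (-0.17) with no overlap (exact permutation p = 0.1, adjusted 0.143). The falls of KDM1A and KDM5A were not firm: neither passed without wt-progerin replicate 2 or 3, KDM1A also not without wt-progerin replicate 1 (limma adjusted p = 0.0800 to 0.0897), and KDM5A also not without S22A-progerin replicate 1 or 2 (0.0896 to 0.108). PHF8, an X-linked demethylase of lysine 9, was lower on every S22A-progerin array (8.48, 8.32 and 8.56 against 8.66, 8.71 and 8.58) and did not pass (-0.20, limma adjusted p = 0.106). KDM4D (-0.22) did not pass, but did without S22A-progerin replicate 1 (0.0382). Of the rest of the class, 10 members had differences between -0.19 and 0.19 and did not pass, nor did KDM5D, whose values are not shown.

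Of 11 histone deacetylases 5 fell and 1 rose (54.5% passed, against 25.4% of all genes), with a median of -0.19. Most were of middle or high level, where 14.8% (middle tertile) and 25.6% (brightest tertile) of all genes were lower. HDAC9, a deacetylase of class IIa that represses MEF2 targets, rose by 0.97 (SE 0.076, limma adjusted p = 1.98e-04), from 6.57, 6.67 and 6.81 to 7.67, 7.58 and 7.71. Its wt-progerin mean of 6.68 lay below the median level of 7.10 over all genes, and its mean over the 6 arrays was at percentile 51.3. HDAC6, a cytoplasmic enzyme that deacetylates tubulin, fell by 0.59 (SE 0.063), from 8.54, 8.48 and 8.50 to 7.97, 7.81 and 7.96. Both kept their calls in every alternative fit.

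The nuclear class I enzymes fell by little. HDAC1 went from a mean of 10.13 to 9.93 (-0.19), HDAC2 from 7.85 to 7.63 (-0.21) and HDAC8 from 8.12 to 7.91 (-0.21). HDAC3, with a difference of similar size, was lower on every S22A-progerin array but did not pass (-0.22, limma adjusted p = 0.103). HDAC5, of class IIa like HDAC9, fell by 0.23. Another member of that class, HDAC4, did not pass and was dim (5.86 and 6.17). Its second probe set, nearly as bright, had a difference of 0.04, against 0.31 for the one used. HDAC7 (-0.12) and HDAC11 (0.18) also did not pass though their groups did not overlap. HDAC1 minus HDAC2, enzymes that share complexes, changed by 0.02 per array with overlapping groups (exact permutation p = 0.5). The change was 0.15 with probe sets averaged, since the much dimmer second probe set of HDAC2 fell by 0.46. These smaller falls often missed the threshold in fits with 1 array fewer. Without wt-progerin replicate 1 or 3, or S22A-progerin replicate 2, HDAC6 was the 1 member of the class that was lower. Without wt-progerin replicate 2 there were 2. By limma's adjusted p, HDAC1 (0.0627 to 0.109), HDAC2 (0.0616 to 0.152) and HDAC8 (0.0627 to 0.0906) each missed without any 1 of 5 arrays. HDAC5 missed (0.0525 to 0.0775) without wt-progerin replicate 1 or 3 or S22A-progerin replicate 2.

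Of 7 sirtuins, the deacetylases that use NAD, 1 rose and none fell, with a median of 0.10. In this class 14.3% passed, against 25.4% of all genes. SIRT2, a largely cytoplasmic enzyme, rose by 0.29 (SE 0.066, limma adjusted p = 0.0187), from 7.87, 7.94 and 8.03 to 8.22, 8.17 and 8.31. Without wt-progerin replicate 1 or 2 it did not pass (0.0687 and 0.0617). The nuclear SIRT6 (0.21) and the mitochondrial SIRT5 (0.13) did not pass. SIRT1 was the same in both groups within the spread, at 9.63 ± 0.0395 and 9.64 ± 0.0465 (SD, n = 3).

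Of 7 acetyltransferases 2 fell and 1 rose (42.9% passed, against 25.4% of all genes). In the brightest tertile of all genes 25.6% were lower and 14.2% higher, and the counts of this class are near those shares. KAT2A (GCN5), the catalytic subunit of SAGA, rose by 0.27 (SE 0.056, limma adjusted p = 0.0119), from 9.65, 9.70 and 9.67 to 10.01, 9.88 and 9.93. Its relative KAT2B did not pass (0.04), and KAT2A minus KAT2B was 0.23 higher per array with no overlap (exact permutation p = 0.1, adjusted 0.143). KAT14, a subunit of the ATAC complex that also holds KAT2A, fell by 0.41 (SE 0.069), from 7.74, 7.55 and 7.71 to 7.30, 7.19 and 7.28. KAT8 (MOF), which acetylates lysine 16 of histone H4, fell by 0.27 from a mean of 8.45, but not without wt-progerin replicate 2 or 3 (limma adjusted p = 0.0543 and 0.0547). KAT6B (-0.18) and KAT7 (-0.18) did not pass with all arrays and passed as lower without S22A-progerin replicate 3 (0.0221 and 0.0259).

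The CHD proteins slide or eject nucleosomes. Of 10, 4 fell and 2 rose (60% passed, against 25.4% of all genes), with a median of -0.14. They were bright (median level 9.27), and in the brightest tertile of all genes 25.6% were lower and 14.2% higher. CHD3 and CHD4, the motors of the deacetylase complex NuRD, fell by 0.37 (SE 0.052) and 0.34 (SE 0.053). CHD4 was the brightest of the class, with 11.27, 11.31 and 11.26 in wt-progerin and 10.98, 10.89 and 10.94 in S22A-progerin. CHD5, a related protein best known from neurons, fell by 0.53 (SE 0.049, limma adjusted p = 3.85e-04), from 8.03, 7.98 and 8.02 to 7.49, 7.49 and 7.46. So the 3 members of the CHD3 to CHD5 subfamily were lower on every S22A-progerin array, and CHD3 minus CHD4 changed by -0.04 per array with overlap (exact permutation p = 0.2).

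CHD2, of the subfamily of CHD1, rose by 0.38 (SE 0.067), from 8.03, 8.03 and 8.15 to 8.42, 8.37 and 8.54, while CHD1 did not pass (0.02). CHD7 rose by 0.24, and CHD1L, a remodeller switched on by poly(ADP-ribose), fell by 0.25. CHD7 lost its call without any array but S22A-progerin replicate 2 (limma adjusted p = 0.0558 to 0.141), and CHD1L without wt-progerin replicate 1 (0.0729) or S22A-progerin replicate 2 (0.0626). CHD6 (-0.25) was lower on every S22A-progerin array and did not pass (limma adjusted p = 0.0595). It passed without S22A-progerin replicate 3 (0.0248), and also with arrays shifted to a common median, dim genes left out, a trended prior, array weights or the replicate number as a block. CHD8 and CHD9 had differences of -0.02 and -0.00552, and neither passed.

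Of 8 arginine methyltransferases 1 fell and none rose (12.5% passed, against 25.4% of all genes), with a median of 0.00906. PRMT6, which methylates arginine 2 of histone H3, fell by 0.34 (SE 0.056, limma adjusted p = 0.00461), from a mean of 9.03 (SD 0.026) to 8.61, 8.71 and 8.74. PRMT8, known from brain, was dim and did not pass (0.30, SE 0.122), and neither did PRMT9 (-0.12). PRMT5, the main enzyme of symmetric dimethylation, had means of 9.55 and 9.60.

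**Figure D4:**
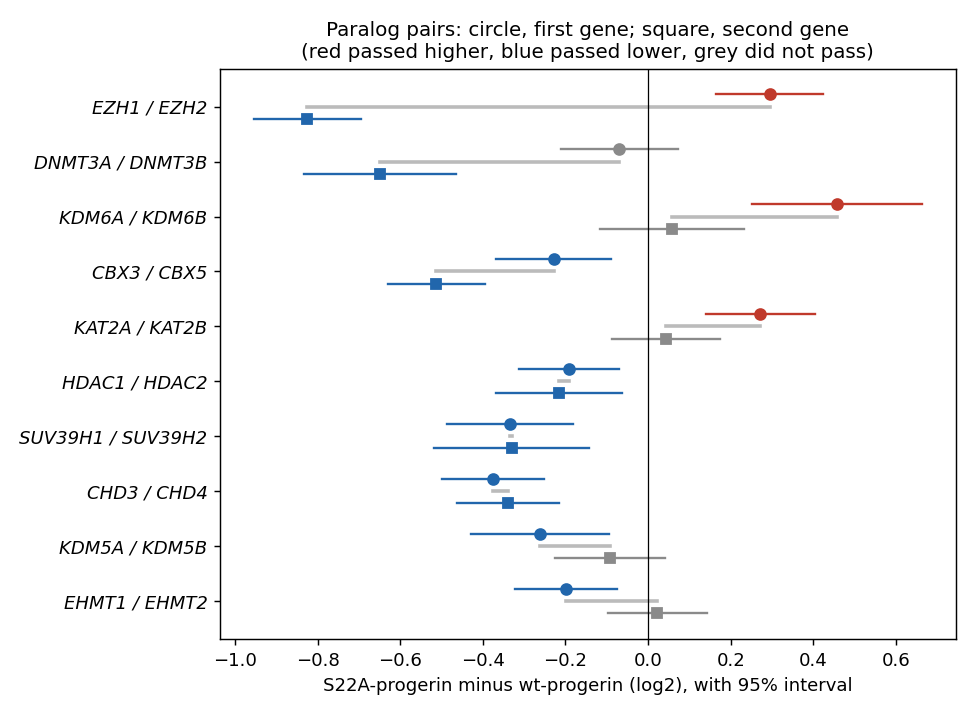
Difference between the groups (log2) with its 95% interval for both genes of the 10 measured pairs of related genes, circles for the first gene and squares for the second. EZH1 and EZH2 lie on opposite sides of 0 and both passed, while the genes of the pairs SUV39H1 and SUV39H2, HDAC1 and HDAC2, and CHD3 and CHD4 lie close together.

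In all, the per-array differences of 7 of the 10 measured pairs of related genes did not overlap between groups, and 3 overlapped. The share among other pairs of genes was not taken, and 42.1% of single genes did not overlap. EZH1 and EZH2 were the pair whose members both passed in opposite directions. No pair can reach an exact p under 0.1 with 3 arrays per group, so these are sizes beside the spread between arrays.

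Genes that work with these enzymes but fall outside the naming rule were also counted. Of 147 listed, 102 were measured, of which 38 fell and 2 rose, with a median of -0.16. Of all genes 14.6% were lower and 10.8% higher, but these genes were bright, with a median of 9.28 in wt-progerin, and 25.6% of the brightest tertile of genes was lower. Counts such as 4 of 16 or 2 of 8 are near that share. Histone chaperones, several of which load new histones behind the replication fork, had the most falls, 7 of 11 (median -0.34), with ASF1B at -0.57 and NASP at -0.51. Of 7 Polycomb complex 2 cofactors 3 fell and none rose, led by the histone-binding protein RBBP7 (-0.32) and by PHF19 (-0.31), which reads methylated lysine 36. Among 11 genes of Polycomb complex 1, SCMH1 (-0.52) and PCGF3 (-0.23) fell and PHC2 rose (0.70). Although the SWI/SNF motors were not analysed here, 5 of 13 measured partners fell and none rose, with ARID1A at -0.69 and BICRAL at -0.47.

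Other DNA methylation genes fell in 3 of 7 cases, most of all TET1 (-0.99), which oxidises methylcytosine, and with it TDG (-0.29), the glycosylase that removes the products. Of 11 further histone methylation enzymes 4 fell, led by NSD2 (-0.59), which dimethylates lysine 36, and HR (-0.46), a demethylase of lysine 9. Acetyltransferases outside the rule and their partners fell in 5 of 10 cases and rose in none, with JADE1 at -0.79 and the scaffold TRRAP at -0.32. NuRD and other deacetylase partners fell in 3 of 8, including MTA1 (-0.35) and SIN3A (-0.32), and the other 5 did not pass. Of 8 partners of the lysine 4 methyltransferases 2 fell, HCFC1 (-0.37) and RBBP5 (-0.28). Of 16 ISWI, INO80 and SRCAP partners 4 fell and 1 rose, with INO80D at 0.45 and YEATS4 at -0.40.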

How the data were processed

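The authors deposited 1 log2 signal per probe set and array. The submitters' processing notes name RMA and Affymetrix Expression Console, without versions. RMA corrects background, quantile normalizes arrays and summarises probes, and without a detection call it gives silent genes a low signal too. Of 53617 probe sets, 16098 had 1 gene symbol in the platform annotation, 0 had several and 37519 were not named here. The brightest probe set by mean over the 6 arrays stood for a gene (4 of the 94 members had several). Differences were tested with limma 3.58.1 (R 4.3.3; lmFit, eBayes, 2 groups, no covariate), two-sided, adjusted over 14884 genes. The code was tested on simulated data. The number of arrays limits the precision, and the p-values rest on how far these arrays spread. Pairs of related genes were compared by an exact permutation test of their per-array difference. Members, lists, pairs and motifs were chosen with earlier results of these data known. The naming rule took, per class, the 3 largest rises and falls that passed and the 2 largest differences that did not, the genes named singly, all pairs and 2 genes per partner list. Other members were named after their values were seen. Alternatives covered normalization, dim genes, probe sets, variance prior, array weights, a replicate block, each array left out and a threshold of 0.01. Protein sequences were not used here.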

Additional observations from a re-analysis of the deposited data

How the results depend on the processing

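At a threshold of 0.01, 2078 genes passed in place of 3777, with 5 members higher and 17 lower. With each array left out in turn the members lower numbered 18 to 31, those higher 7 to 9, members with groups apart 58 to 64 and genes passing 2647 to 3601. These fits use fewer arrays or a stricter threshold by construction, and with fewer arrays the groups lie apart more easily. The share of all genes with groups apart was not taken with an array left out. Under the other alternatives these counts stayed within 1.5 times: 25 members were lower with the arrays quantile normalized again, 32 with arrays shifted to a common median, 37 of 82 with the dimmer 50% of genes left out (SETD3, SETD5, PHF8, KDM3B, KAT6B, HDAC3 and CHD6 being added) and 36 with a trended robust variance prior. The share of all genes kept that was lower also rose without the dimmer genes, to 31.8% of 7442 from 14.6%, and with the trended prior, to 17.8%. With repeated quantile normalization SETD9, KMT5B, EHMT1, HDAC2 and CBX3 lost their calls, which left 3 falls among lysine methyltransferases. The class counts, the related-gene pairs and the wider motif window under alternatives were added after seeing the data. No member that passed changed direction, and 22 of 39 passed in every alternative that tested them. Same-numbered arrays did not deviate together (correlations -0.0195, -0.0549 and -0.00558, and 0 of 6 arrays matched best with their own number). With the replicate number as a block, 2990 genes passed, with 9 members higher and 21 lower, and 11.5% of all genes lower. Falls then numbered 1 of 11 histone deacetylases in place of 5, 0 of 20 lysine demethylases in place of 2 and 3 of 17 lysine methyltransferases in place of 6, CBX3 and CHD7 lost their calls, and CHD6 (lower) and PRMT8 (higher) gained one. Values near background are compressed, so differences of the dim members are limited by signal.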
